A study of Mus musculus with 18 samples.

Results

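The genes described here encode the fibroblast growth factor (FGF) ligands, their receptors and the genes that FGF signalling switches on to restrain itself, as measured by RNA-seq in cells sorted from the mouse aorta-gonad-mesonephros (AGM) region, the embryonic site where the first adult-type blood stem cells form. Members were taken by name alone: symbols of the Fgf family, the receptors Fgfr1 to Fgfr4 and Fgfrl1, the Sprouty and Spred genes, and Etv4, Etv5 and Dusp6. That gave 37 of 21881 gene symbols, made up of 15 secreted ligands, 3 endocrine ligands, 4 intracellular FGF homologous factors, 5 receptors, 4 Sprouty genes, 3 Spred genes and 3 targets of the kinase ERK. Of these, 36 had at least 1 count in some library, 7 had counts in all 18 libraries, and 27 were abundant enough to be tested.

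The libraries came from embryonic day 11 AGM tissue of the C57BL6 BRE-GFP reporter strain, in which a BMP-responsive element drives GFP. Cells were sorted into 3 populations: HPSC (CD31 positive, Kit positive, enriched for hematopoietic progenitor and stem cells), MC (CD31 negative, Kit negative, enriched for mesenchymal cells) and EC (CD31 positive, Kit negative, enriched for endothelial cells). Tissue was cultured as explants with BMP and Hedgehog in the presence of cyclopamine, an inhibitor of the Hedgehog transducer Smoothened, cultured in the same way without cyclopamine, or sorted fresh, and each population was split into a BRE-GFP positive and a BRE-GFP negative fraction. There was 1 library for each combination, so 6 libraries per population, 6 per culture and 9 per fraction, and the number of embryos behind a library is not given in the sources used here. A comparison therefore rests on libraries that differ in the other factors, and its p-value measures how far an effect varied between matched libraries, not between repeat samples of 1 condition.

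FGF ligands bind receptor tyrosine kinases together with heparan sulfate on the cell surface, and the receptors signal mainly through RAS and ERK. ERK activity induces the transcription factor genes Etv4 and Etv5 and a set of inhibitors, among them the Sprouty genes and Dusp6, whose product is a phosphatase that inactivates ERK, so that the levels of these genes are widely used as a readout of the pathway. Spred proteins also restrain RAS signalling, Fgfrl1 is a receptor without a kinase domain, and Fgf11 to Fgf14 encode proteins that stay inside the cell and bind sodium channels. In zebrafish embryos FGF signalling has been linked to the specification of blood stem cells.

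The promoters of 4 genes on which the results below turn are printed here, 2 for genes that were lower in HPSC than in MC (Fgfr2 and Fgf9) and 2 for feedback genes (Spry1 and Dusp6). Each is the 250 bases before the RefSeq transcription start, read on the gene's own strand in build GRCm38.p6, and capitals mark GGAA or its reverse complement TTCC, the core bound by ETS factors such as the Etv4 and Etv5 proteins.
Fgfr2, chr7:130266809-130267058, minus strand: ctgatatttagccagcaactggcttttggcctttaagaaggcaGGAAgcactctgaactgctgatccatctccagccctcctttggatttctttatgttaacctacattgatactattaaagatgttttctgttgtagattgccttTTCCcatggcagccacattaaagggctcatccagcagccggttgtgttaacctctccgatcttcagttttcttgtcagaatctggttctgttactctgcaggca
Fgf9, chr14:58072436-58072685, plus strand: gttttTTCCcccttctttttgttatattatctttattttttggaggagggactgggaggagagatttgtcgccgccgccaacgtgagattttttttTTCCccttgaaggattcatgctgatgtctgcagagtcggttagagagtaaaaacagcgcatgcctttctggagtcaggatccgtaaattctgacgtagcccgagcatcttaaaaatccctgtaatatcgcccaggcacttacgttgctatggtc
Spry1, chr3:37639697-37639946, plus strand: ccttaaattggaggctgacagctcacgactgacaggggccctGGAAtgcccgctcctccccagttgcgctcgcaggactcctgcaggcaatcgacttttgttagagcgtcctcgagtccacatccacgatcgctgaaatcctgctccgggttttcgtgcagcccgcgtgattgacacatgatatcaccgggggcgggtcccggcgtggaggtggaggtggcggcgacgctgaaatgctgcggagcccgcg
Dusp6, chr10:99262981-99263230, plus strand: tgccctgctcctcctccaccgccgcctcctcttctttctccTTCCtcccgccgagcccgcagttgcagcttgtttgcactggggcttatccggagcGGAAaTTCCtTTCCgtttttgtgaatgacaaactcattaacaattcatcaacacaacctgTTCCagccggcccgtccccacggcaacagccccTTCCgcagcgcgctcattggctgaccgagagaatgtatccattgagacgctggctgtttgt
The core occurs 6 times in the Dusp6 window, 2 times in those of Fgfr2 and Fgf9 and 1 time in that of Spry1. Such matches are common: on either strand, GGAA occurred in 93.4% of the 32851 promoter windows of this length in the RefSeq table, with a median of 3 matches. The palindromic GC-rich SMAD-binding element GGCGCC, searched for because BRE-GFP reports BMP signalling, was in none of the 4 windows and in 9.59% of all promoters. An entry in that table was found for 27 of the 37 genes.

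Total gene counts ran from 3041249 to 21972063 per library, and 10297 to 18816 genes were detected. The sorting genes followed the gates: Kit averaged 770.1 ± 234 CPM (gene counts scaled to library size) in HPSC, 97.96 ± 55.7 in MC and 132 ± 70.0 in EC, and Pecam1, which encodes CD31, averaged 1042 ± 929, 7.10 ± 2.88 and 738 ± 663 CPM in the same order (SD, n = 6 each). EC libraries also held 1151 to 7333 CPM of a list of 14 mesenchymal markers and 1153 to 7976 CPM of 12 macrophage markers. HPSC libraries held 322 to 1063 and 706 to 5726 CPM of these lists, and MC libraries 3036 to 8554 and 57.2 to 191 CPM. Detection of FGF genes moved with the number of genes detected: 11, 12 and 15 of the 37 genes had counts in the libraries with the fewest detected genes of each population (HPSC cyclopamine negative, EC cyclopamine negative and MC fresh positive), against up to 32 in others, and its part in the results was not tested.

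**Figure D1:**
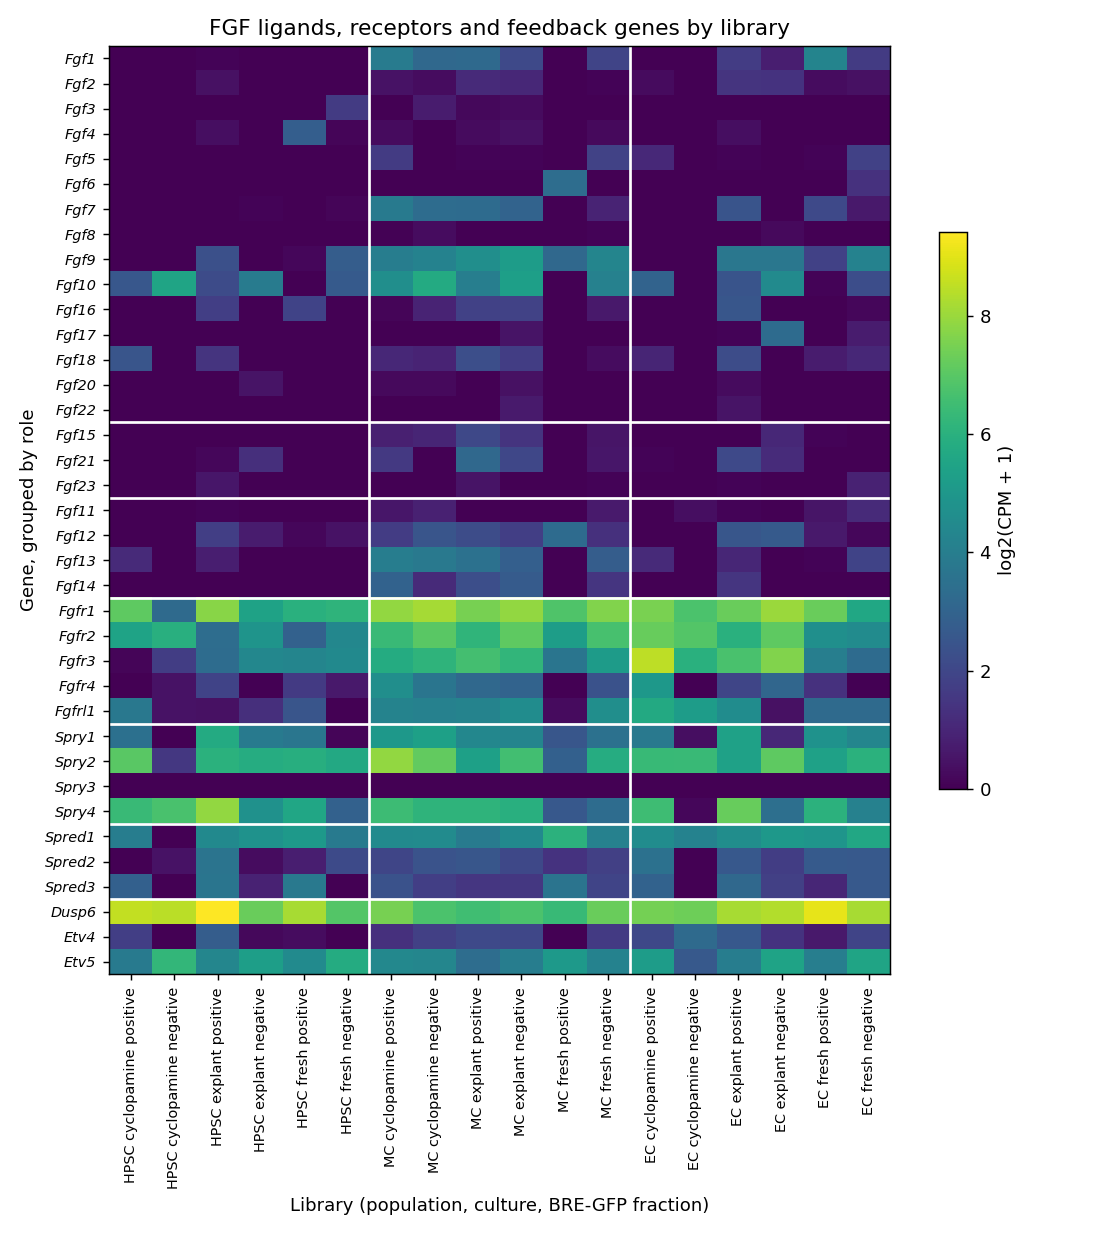
Level of each of the 37 FGF pathway genes (rows, grouped by role) in each of the 18 libraries (columns), as log2(CPM + 1). Receptor and feedback genes were detected in most libraries, while most ligand genes were near 0 outside MC and part of the EC libraries.

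All 5 receptor genes were expressed, and Fgfr1, which encodes a receptor found chiefly on mesenchyme in many embryonic organs, was the most abundant of the signalling receptors per kilobase of exon in 14 of 18 libraries (5 of HPSC, 6 of MC and 3 of EC). Fgfr1 averaged 8.92 ± 7.45 CPM per kilobase in HPSC, 21.1 ± 6.07 in MC and 15.2 ± 7.17 in EC (SD, n = 6 each). On the same scale Fgfr2 followed with 2.73 ± 2.04 in HPSC, 8.97 ± 3.54 in MC and 8.24 ± 5.42 in EC, Fgfr3 with 1.65 ± 1.29, 7.92 ± 4.24 and 17.3 ± 18.7, Fgfrl1 with 1.16 ± 1.76, 5.97 ± 3.11 and 7.72 ± 7.07, and Fgfr4 with 0.27 ± 0.33, 2.60 ± 2.35 and 2.07 ± 3.49. In MC the interval of mean ± SD of Fgfr1 stood clear of the others, whereas in HPSC and in EC it overlapped that of Fgfr2. In EC the order of Fgfr1 and Fgfr3 was within their spread, and Fgfr3 was the top receptor in EC cyclopamine positive and EC explant negative. Summed over Fgfr1 to Fgfr4, receptor mRNA came to 13.6 ± 6.43 CPM per kilobase in HPSC, 40.6 ± 13.4 in MC and 42.9 ± 31.5 in EC.

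Ligand genes were low and came mainly from MC. Of the 18 secreted or endocrine ligand genes, HPSC libraries detected 1 to 9 (median 3.5), MC libraries 2 to 15 (median 13) and EC libraries 0 to 14 (median 8). Their summed level was 8.86 to 44.5 CPM in HPSC (median 13.1), 17.4 to 98.01 in MC (median 74.9) and 0 to 47.8 in EC (median 27.5). Fgf9, a ligand made by epithelia and mesothelia in many embryonic organs, and Fgf10, a mesenchymal ligand best known for limb and lung outgrowth, were the 2 with a population mean of 10 CPM or more.

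The largest set of differences lay between HPSC and MC, where 7 of the 27 tested FGF genes (25.9%) passed edgeR's quasi-likelihood test at an adjusted p under 0.05, and all 7 were lower in HPSC. Across all 16231 genes tested, 9.95% passed in either direction and 5.85% passed as lower in HPSC. The 7 were the receptor Fgfr2, the secreted ligands Fgf1, Fgf7 and Fgf9, the endocrine ligand Fgf15 and the intracellular factors Fgf13 and Fgf14, while none of the 9 tested Sprouty, Spred and ERK target genes passed. The median log2 fold change, HPSC over MC, was -2.50 over the 27 FGF genes and -0.38 over all genes tested. That FGF median is the fitted value of Fgf18, with 75 counts over all HPSC libraries and 132 over all MC libraries. Its pooled counts gave a ratio of MC to HPSC of 1.18 (95% exact interval 0.88 to 1.58, counting error only). The median is thus no estimate of the size of the difference. In sorted bulk libraries fewer expressing cells and less RNA per cell cannot be told apart.

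**Figure D2:**
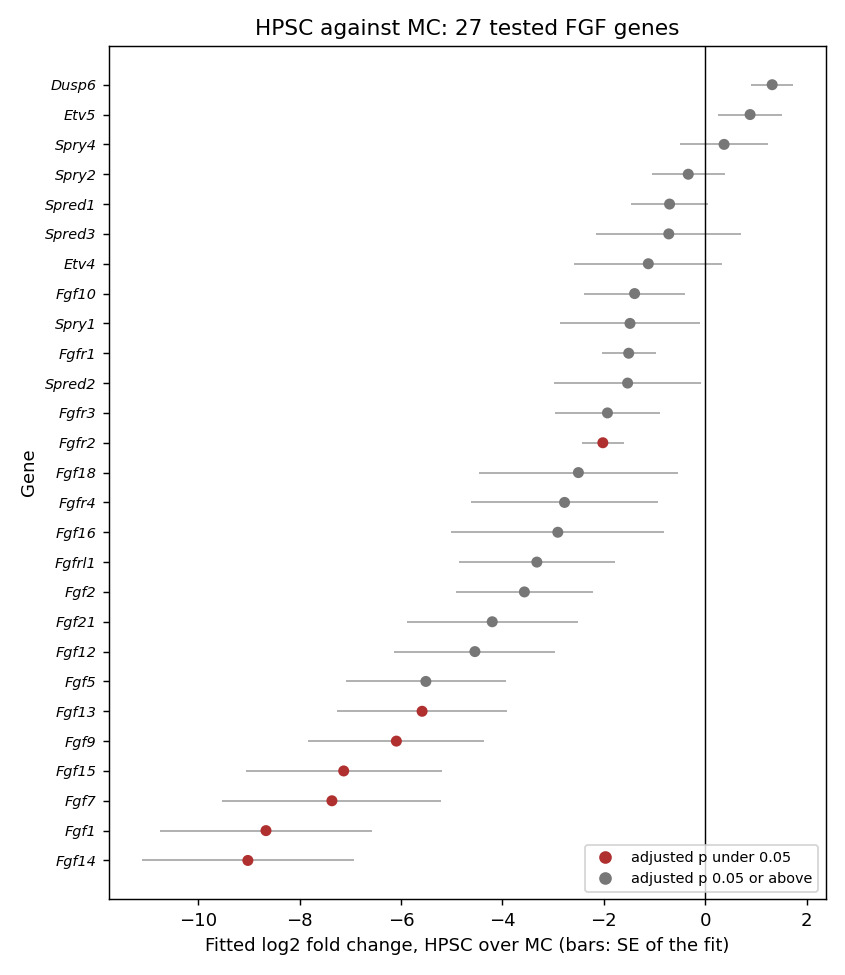
Fitted log2 fold change, HPSC over MC, of the 27 tested FGF genes, with the SE of the fit as bars, and red points for an adjusted p under 0.05. The 7 genes that passed lie left of 0, and Dusp6, at the other end, lies at 1.32. The fitted values of genes with 0 to 2 counts in HPSC depend on the prior count and are no estimate of size. Those of Fgf9 and Fgf13, each without counts in some HPSC libraries, exceed the ratios of their pooled counts and are no estimate of size either. The same holds for several other genes without counts in some HPSC libraries, among them Fgf2, Fgf12, Fgf16, Fgf18 and Fgf21.

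Fgfr2, whose product binds FGF7 and FGF10 in its epithelial splice form, was the steadiest of these. Its lowest, median and highest levels were 6.58, 24.2 and 61.1 CPM in HPSC libraries, against 37.4, 92.1 and 135 CPM in MC libraries. The ranges overlapped, but within each of the 6 blocks of matched culture and fraction the HPSC library was the lower one. The log2 fold change was -2.02 ± 0.41 (SE; adjusted p = 0.004673, edgeR), and the gene passed without any single library, with a highest adjusted p of 0.02654 without MC fresh negative. A Ctbp2 transcript shares 314 exonic bases, 3.04% of the Fgfr2 exons in GENCODE M21, on the same strand.

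Fgf9 was the 1 FGF gene with no overlap between the populations, against 4.85% of all tested genes that were lower in HPSC without overlap. HPSC libraries ran from 0 to 5.91 CPM (median 0.0599) and MC libraries from 7.99 to 36.0 CPM (median 17.9), with 120 counts over all HPSC libraries and 1846 over all MC libraries. The fitted log2 fold change was -6.09 ± 1.74 (adjusted p = 0.03478, edgeR). The pooled counts gave a smaller difference, with a ratio of MC to HPSC of 10.3 (95% exact interval 8.55 to 12.5, counting error only). The fitted value is thus no estimate of size. The Fgf9 call held in 9 of 18 fits that each left out 1 library, with a highest adjusted p of 0.09663. It was lost in the additive design and without the 3 libraries of fewest detected genes (adjusted p = 0.06806). The gene lies at chr14:58070547-58112720 on the plus strand in GENCODE M21 (GRCm38, the same assembly as mm10).

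Fgf1 and Fgf7 were nearly absent from HPSC. Fgf1, a ligand able to bind all FGF receptors, had 1 count over the 6 HPSC libraries and 664 over the 6 MC libraries, a ratio of MC to HPSC of 443.9 (95% exact interval 79.4 to 17560, counting error only; adjusted p = 0.01466, edgeR). Its MC libraries held 0 to 14.1 CPM with a median of 5.68, and the 1 without a count was MC fresh positive. The call held in 17 of 18 fits with 1 library left out, and the adjusted p was 0.0566 without HPSC explant positive. Fgf7, a mesenchymal ligand for the epithelial form of FGFR2, had 2 counts in HPSC and 699 in MC, a ratio of MC to HPSC of 233.6 (interval 64.4 to 1933; adjusted p = 0.03945). It ranged from 0 to 13.4 CPM in MC libraries (median 7.92), and its call held in 8 of 18 such fits, with a highest adjusted p of 0.1276 without MC explant negative. Both genes had the HPSC library lower in 5 of 6 blocks, the block with MC fresh positive being the one where neither library had a higher level.

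The intracellular factors showed the same order of populations. Fgf13 ranged from 0 to 1.19 CPM in HPSC (median 0) and from 0 to 14.9 CPM in MC (median 8.41). Its fitted log2 fold change was -5.59 ± 1.67 (adjusted p = 0.04264, edgeR). The pooled counts gave a smaller difference, with a ratio of MC to HPSC of 24.9 (95% exact interval 16.6 to 39.1, counting error only). The Fgf13 call held 4 times of 18 when single libraries were left out (highest adjusted p 0.1259) and was lost in the additive design. Fgf14 had no count in HPSC and 333 in MC, where it reached 6.74 CPM (median 2.78), so that it was at least 74.2-fold lower in HPSC, taking a floor of 3 counts over the group (adjusted p = 0.02191, 12 of 18 fits, highest 0.06614); DESeq2 did not call it. Fgf12, found in all 6 MC libraries at 1.48 to 8.79 CPM and in HPSC at 0 to 2.40 CPM, was lower in HPSC in 6 of 6 blocks, with an adjusted p of 0.0806. In 3 genes (Fgf9, Fgf12 and Fgfr2; 11.1% of 27) the HPSC library was lower in every block, against 10.8% of all tested genes.

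Fgf15, an endocrine ligand that in the adult mouse carries a signal from the gut to the liver, had no count in HPSC and 111 in MC. It was 24.7-fold lower in HPSC by the same floor, and the lower end of the 95% exact interval was 19.8-fold. Its adjusted p was 0.03779 (edgeR), passing in 6 of 18 fits (highest 0.09393), and DESeq2 did not call it. It reached no more than 3.13 CPM in any library, and 24.9% of its exonic bases lie opposite the antisense gene Gm26793. Fgf5, a secreted ligand known for its control of hair length, also had no count in HPSC and 91 in MC, and just missed the threshold (adjusted p = 0.05138, edgeR). It was 20.3-fold lower in HPSC by the floor, and the lower end of the 95% exact interval was 16.2-fold. Of those 91 counts, 46 were in MC cyclopamine positive and 43 in MC fresh negative, and the other 4 MC libraries held 1 or none. By the floor, the difference was 13.3-fold without MC cyclopamine positive and 13.1-fold without MC fresh negative.

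The remaining secreted ligands gave no call. Fgf10 had lowest, median and highest levels of 0, 5.17 and 44.5 CPM in HPSC, 0, 20.3 and 53.2 CPM in MC and 0, 4.08 and 21.9 CPM in EC, and its log2 fold change, HPSC over MC, was -1.39 ± 0.998 (adjusted p = 0.4232). The HPSC library was lower in 5 of 6 blocks. The highest HPSC level came from HPSC cyclopamine negative, the shallowest library, and without the 3 libraries of fewest detected genes Fgf10 passed, at -1.89 (adjusted p = 0.03508). Fgf2, a ligand widely used to culture endothelial cells, did not exceed 1.68 CPM in any library and held 5 counts in HPSC, 46 in MC and 44 in EC, and 9.44% of its exonic bases are shared with the antisense gene Nudt6. Fgf16, Fgf18 and Fgf21 stayed at or below 8.21 CPM in each library.

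**Figure D3:**
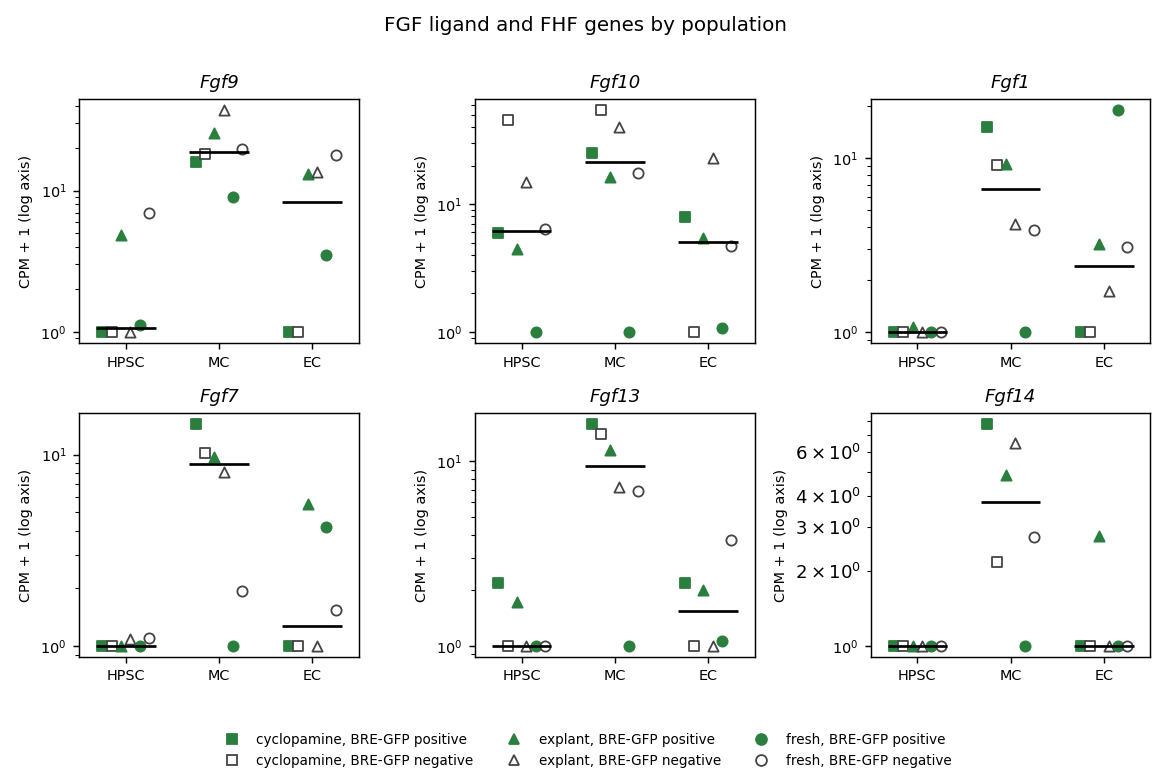
Levels of 4 secreted ligand genes and 2 intracellular factor genes in each library, as CPM + 1 on a log axis, by population, with a bar at the median of 6 libraries. MC libraries held the highest medians for each of these genes, and points at 1 are libraries with 0 CPM.

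The 10 untested genes had 0 to 75 counts in all 18 libraries together: Fgf3, Fgf4, Fgf6, Fgf8, Fgf11, Fgf17, Fgf20, Fgf22, Fgf23 and Spry3. Most of the counts of several of these came from 1 library. Fgf4 had 50 of its 75 counts in HPSC fresh positive, Fgf17 49 of its 62 in EC explant negative and Fgf6, a ligand of muscle precursors, 47 of its 61 in MC fresh positive, at 9.39 CPM the highest level among the untested genes. Spry3 had no count in any library.

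Feedback genes gave no call between HPSC and MC, and 1 of them lay near the threshold on the other side. Dusp6 had the highest mean CPM of the 37 genes in HPSC and in EC, whereas in MC Fgfr1 averaged 208 ± 59.9 CPM against 120.5 ± 38.5 CPM for Dusp6 (SD, n = 6 each). CPM are not corrected for gene length. Per kilobase of exon the MC order differed, with 21.1 ± 6.07 for Fgfr1, 38.5 ± 12.3 for Dusp6 and 46.0 ± 40.2 for Spry2. Dusp6 had lowest, median and highest levels of 119.5, 319 and 687 CPM in HPSC, 80.7, 108 and 180.4 CPM in MC and 162, 294 and 533 CPM in EC. The HPSC library was higher than its MC match in 5 of 6 blocks, with a log2 fold change of 1.32 ± 0.41 (adjusted p = 0.05031, edgeR). That gene passed with DESeq2, limma-voom, relative log expression scaling and the additive design, and its adjusted p ran from 0.02351 to 0.1331 as single libraries were left out. Without the 3 libraries of fewest detected genes (1 per population) it was 0.1809, with a log2 fold change of 1.05. Against EC, Dusp6 in HPSC gave 0.06 ± 0.41 on the log2 scale (adjusted p = 0.9843).

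The Sprouty genes, which encode inhibitors of receptor tyrosine kinase signalling, were expressed in all 3 populations at levels that varied widely within each. Spry2 averaged 59.8 ± 40.0 CPM in HPSC, 96.0 ± 83.9 in MC and 74.3 ± 35.1 in EC, and Spry4 84.8 ± 84.2, 49.8 ± 34.2 and 55.1 ± 57.6 CPM. Spry1 averaged 15.0 ± 20.0 CPM in HPSC, 20.9 ± 13.1 in MC and 16.9 ± 15.8 in EC (SD, n = 6 each). The log2 fold changes of HPSC over MC were -0.33 ± 0.72 for Spry2, 0.37 ± 0.86 for Spry4 and -1.48 ± 1.39 for Spry1, with adjusted p-values of 0.8318, 0.8476 and 0.5591. Of the Spry1 exonic bases, 24.4% lie opposite the antisense gene Gm42922, which the tables do not count.

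Among the remaining feedback genes, Spred1 averaged 18.3 ± 11.51 CPM in HPSC, 27.04 ± 19.4 in MC and 29.0 ± 11.3 in EC. Etv5 averaged 37.1 ± 23.8 CPM in HPSC, 19.0 ± 7.85 in MC and 26.5 ± 16.7 in EC, and its close relative Etv4 1.43 ± 2.33, 2.03 ± 1.19 and 3.61 ± 2.82 CPM. The HPSC over MC log2 fold changes were -0.70 ± 0.76 for Spred1, 0.89 ± 0.63 for Etv5 and -1.12 ± 1.46 for Etv4, all with adjusted p-values of 0.4163 or more. Spred2 and Spred3 had population means of 2.65 to 5.37 CPM.

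Of the other receptors, Fgfr1 had lowest, median and highest levels of 8.67, 65.2 and 212 CPM in HPSC and 113, 217 and 287 CPM in MC, with the HPSC library lower in 5 of 6 blocks (log2 fold change -1.51 ± 0.53, adjusted p = 0.08334). The explant positive block was the exception, with 212 CPM in HPSC and 178 CPM in MC. Fgfr3 gave -1.93 ± 1.03 (adjusted p = 0.2638) and Fgfrl1 -3.32 ± 1.54 (adjusted p = 0.1882), each lower in HPSC in 5 of 6 blocks. At an unadjusted p under 0.05, 13 FGF genes were lower in HPSC and 1 (Dusp6) was higher, 51.9% of 27 against 25.1% of all genes tested (17.1% lower and 8.02% higher).

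**Figure D4:**
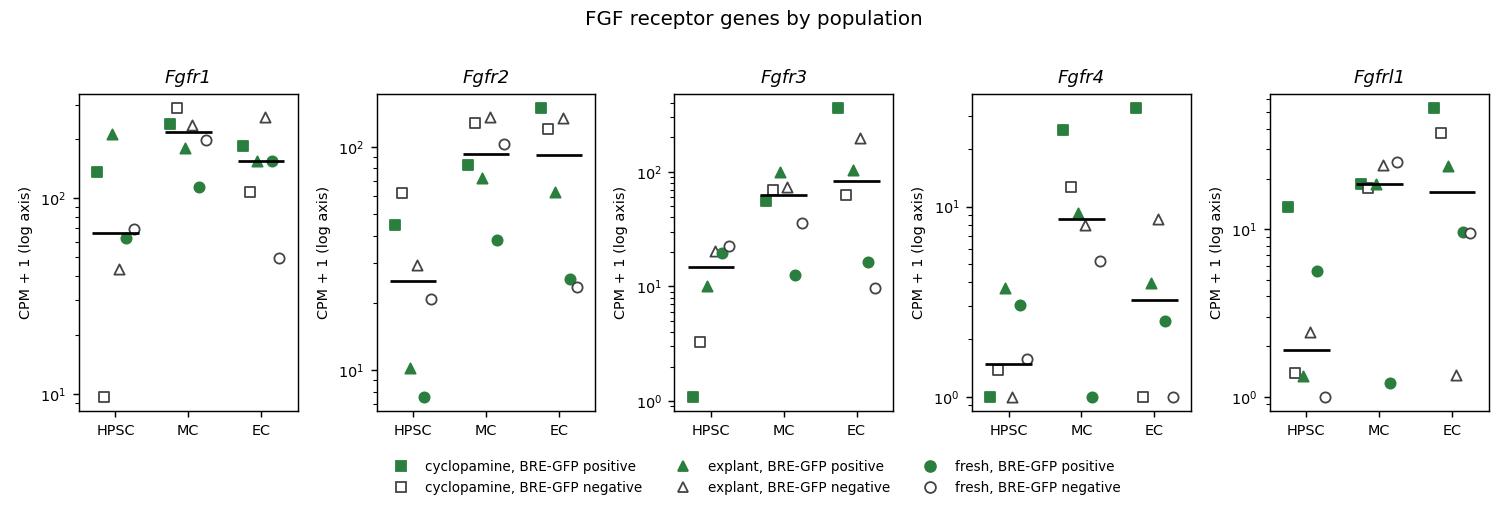
Levels of the 5 receptor genes in each library, as CPM + 1 on a log axis, by population, with a bar at the median of 6 libraries. For each receptor the HPSC median lies below those of MC and EC, and the ranges overlap.

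The count of 7 genes between HPSC and MC was sensitive to single libraries. It was 2 without HPSC cyclopamine positive or MC cyclopamine positive, 3 without EC explant positive, HPSC fresh positive, HPSC cyclopamine negative, HPSC explant positive, MC cyclopamine negative or MC explant negative, and 4 without HPSC explant negative or MC explant positive. Some of these counts include genes outside the 7. Without HPSC explant positive, Fgf9 and Fgfr2 remained of the 7 and Fgfr1 newly passed. Without HPSC explant negative, Fgf1, Fgf14 and Fgfr2 remained and Dusp6, higher in HPSC, newly passed. Marker lists of other cell types moved with this comparison: 9 skeletal muscle precursor markers summed to 1.32 to 16.8 CPM in HPSC and 224 to 1052 CPM in MC, 12 sympathetic neural crest markers to 31.95 to 122 and 414 to 1214 CPM, 14 urogenital and coelomic epithelium markers to 43.4 to 145 and 196 to 364 CPM, and 7 cartilage and sclerotome markers to 14.1 to 80.5 and 245 to 1433 CPM. Msc, Pax2 and Nkx3-2 from these lists were at 0 in all HPSC libraries. Their part in the FGF differences was not tested.

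No FGF gene passed between HPSC and EC with edgeR, where 0.32% of all genes tested did. At an unadjusted p under 0.05, 6 genes (22.2%) were lower in HPSC, namely Fgfr2, Fgfr3, Fgfrl1, Fgf1, Fgf2 and Fgf5, and none was higher. Of all genes tested, 9.32% had such a p-value in either direction, and 7.45% had it with a lower level in HPSC. DESeq2 called 3 (Fgf1, Fgfr2 and Fgfr3) and limma-voom none. Fgfr2 again had the HPSC library lower in 6 of 6 blocks, with EC levels of 22.6 to 148 CPM (median 90.7) and a log2 fold change, HPSC over EC, of -1.67 ± 0.41 (adjusted p = 0.1163). It passed without EC fresh negative (adjusted p = 0.03637). Of all tested genes, 3.19% were lower in HPSC in every block. Fgf1 had 1 count in HPSC and 340 in EC, where EC fresh positive held most of them at 17.9 CPM.

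No FGF gene passed between MC and EC either, against 2.54% of all genes tested. At an unadjusted p under 0.05 Fgf9, Fgf12, Fgf13 and Fgf14 were higher in MC and Dusp6 was lower, 18.5% of 27 against 11.4% of all genes. DESeq2 called Dusp6, Fgf12 and Fgf13, and limma-voom called Fgf13 and Fgf14. Fgf9 was higher in MC in 6 of 6 blocks, against 5.83% of all genes. Its levels were 7.99 to 36.0 CPM in MC (median 17.9) and 0 to 17.0 CPM in EC (median 7.34). The fitted log2 fold change of Fgf9, MC over EC, was 3.34 ± 1.56 (adjusted p = 0.4303, edgeR). Its pooled counts gave a smaller difference, with a ratio of EC to MC of 0.325 (95% exact interval 0.293 to 0.361, counting error only). Dusp6 had a log2 fold change, MC over EC, of -1.26 ± 0.41 (adjusted p = 0.1473, edgeR). The comparisons of HPSC and of MC with EC share the EC libraries.

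Between the BRE-GFP positive and negative fractions no FGF gene passed with edgeR, DESeq2 or limma-voom, against 0.0554% of all genes with edgeR. At an unadjusted p under 0.05, Spry1 and Spry4 were higher and Fgf10 and Fgfr2 lower in the positive fraction, 14.8% of 27 against 5.3% of all genes tested. Adjusted p-values of these 4 lay between 0.812 and 0.9418.

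Spry4 was the higher in the positive library in 7 of 9 pairs, with a log2 fold change, positive over negative, of 1.86 ± 0.80 (adjusted p = 0.8986, edgeR). In EC its positive libraries had 90.5 CPM with cyclopamine, 148 in explants and 65.7 in fresh tissue, against 0.13, 9.78 and 16.5 CPM in the negative libraries. In HPSC the positive libraries had 83.2, 240.1 and 47.4 CPM in the same order of cultures, against 105, 26.1 and 6.68 CPM in the negative ones. In MC the levels were 86.6, 69.5 and 4.99 CPM in positive and 68.5, 59.9 and 9.19 CPM in negative libraries. Each EC positive level was thus above each EC negative one, whereas the HPSC and MC fractions overlapped. The share of all genes with EC fractions so separated is not given here. Within EC the log2 fold change of Spry4 was 4.38 ± 1.23 (unadjusted p = 0.003242, adjusted p = 0.9045, edgeR).

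Spry1 showed a like pattern, with the positive library higher in 7 of 9 pairs and a log2 fold change of 2.44 ± 1.14 (adjusted p = 0.9418, edgeR). Its HPSC positive libraries had 10.2 CPM with cyclopamine, 53.9 in explants and 12.1 in fresh tissue, against 0, 13.8 and 0.0969 CPM in the negative ones. Its EC positive libraries had 12.9, 41.3 and 27.2 CPM in the same order, against 0.26, 1.07 and 18.9 CPM in the negative ones. MC positive libraries had 31.6, 19.4 and 4.79 CPM, against 40.2, 18.6 and 10.5 CPM in the negative ones. In all 6 pairs of HPSC and EC the positive library was the higher, and in MC in 1 of 3. The share of all genes higher in all of those 6 pairs is not given here. Whether the BRE-GFP effect differed between populations was tested as an interaction, which gave unadjusted p-values of 0.04393 for Spry1 and 0.03987 for Spry4, with adjusted p-values of 1.0. No gene of the 16231 passed that test, 2.27% had an unadjusted p under 0.05, and DESeq2 and limma-voom called no FGF gene.

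Markers of endothelium differed between the same fractions. The 14 endothelial marker genes summed to 1634 CPM with cyclopamine, 4946 in explants and 8493 in fresh tissue in EC positive libraries, against 1309, 993.8 and 539.4 CPM in EC negative ones. In HPSC they summed to 3514, 7966 and 6444 CPM in positive libraries in the same order, against 1625, 1057 and 403.9 CPM in negative ones. In MC they summed to 73.5, 147.3 and 248.1 CPM in positive libraries, against 76.3, 75.4 and 79.8 CPM in negative ones. The positive sum was thus the higher in all pairs of HPSC and EC, as were the levels of Spry1. Of the 14 markers 10 had an unadjusted p under 0.05 between the fractions and none passed after adjustment, with a median log2 fold change of 2.01 against 0.11 over all genes tested. A list of primordial germ cell markers had a median log2 fold change of -2.56. Of its 9 tested genes 4 had an unadjusted p under 0.05 (edgeR) and none passed after adjustment. The part of either list in the Spry1 and Spry4 values was not tested.

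Within the 3 HPSC pairs Dusp6, Etv4, Fgfr1, Spred3 and Spry1 were higher and Fgfr2 was lower in the positive fraction at an unadjusted p under 0.05 (edgeR). None had an adjusted p under 0.05, and the share of all genes with such a p-value in these pairs is not given here. Of the tested feedback genes, Etv5 (-1.57 ± 0.98, adjusted p = 0.7357) and Spred2 (-0.81 ± 2.66, adjusted p = 0.9727) had lower fitted levels in the positive fraction, and the others had higher ones. Dusp6 had 376, 687 and 293 CPM in HPSC positive libraries with cyclopamine, in explants and in fresh tissue, against 345, 152 and 119.5 CPM in negative ones (log2 fold change 1.20 ± 0.47, adjusted p = 0.577, edgeR). Fgfr1 had 134, 212 and 61.6 CPM in positive and 8.67, 42.4 and 68.8 CPM in negative HPSC libraries (2.05 ± 0.74, adjusted p = 0.5298, edgeR), the fresh pair being the one in which the positive library was the lower. Spred3 had 6.47, 11.8 and 13.0 CPM in positive and 0, 0.874 and 0 CPM in negative HPSC libraries. HPSC positive libraries also detected more FGF genes than their matches with cyclopamine, in explants and in fresh tissue (15, 26 and 18, against 11, 18 and 17), and its part in these values was not tested.

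Fgf10 and Fgfr2 had lower fitted levels in the positive fraction. Fgf10 was lower in the positive library in 8 of 9 pairs, with lowest, median and highest levels of 0, 4.44 and 24.1 CPM in positive and 0, 16.5 and 53.2 CPM in negative libraries (log2 fold change -2.80 ± 1.25, adjusted p = 0.9236, edgeR). Fgfr2 was lower in 7 of 9 pairs, with 6.58, 43.8 and 148 CPM in positive and 19.8, 102 and 135 CPM in negative libraries (-0.82 ± 0.31, adjusted p = 0.812, edgeR). The exceptions for Fgfr2 were EC with cyclopamine and EC fresh.

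**Figure D5:**
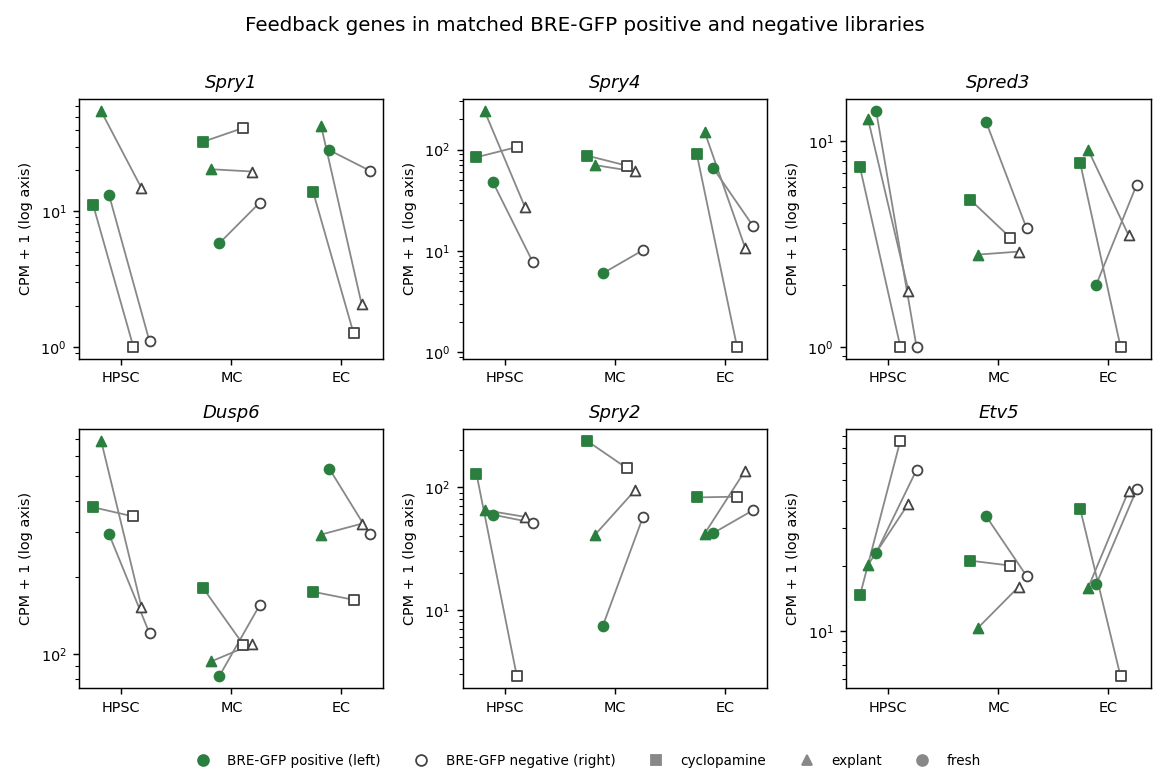
Levels of 6 feedback genes in the matched BRE-GFP positive (left, filled) and negative (right, open) libraries of each population, as CPM + 1 on a log axis, with lines joining libraries of the same population and culture. Spry1, Spry4 and Spred3 lines slope down in 7 of 9 pairs, and those of Dusp6 in 6 of 9. Lines of Spry2 slope up in 5 of 9 pairs, and those of Etv5 in 6 of 9.

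Culture and cyclopamine gave no FGF gene that passed with edgeR. Of all tested genes, 0.136% passed in explant against fresh, none in explant with cyclopamine against explant alone and 0.129% in explant with cyclopamine against fresh; these 3 comparisons share libraries. At an unadjusted p under 0.05, 5 FGF genes were higher in explant than in fresh tissue (Etv4, Fgf2, Fgf10, Fgf21 and Fgfr2; 18.5% of 27 against 8.58% of all genes). In the same sense 4 were lower with cyclopamine than in explants without it (Fgf2, Fgf12, Fgf16 and Fgf21; 14.8% against 8.13%), and 2 were higher with cyclopamine than in fresh tissue (Fgf10 and Fgfr2; 7.41% against 7.21%).

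Fgfr2 had the smallest p-value of these, in cyclopamine against fresh. With cyclopamine, in explants and in fresh tissue, the HPSC positive libraries had 43.8, 9.21 and 6.58 CPM and the HPSC negative ones 61.1, 28.5 and 19.8 CPM. MC positive libraries had 82.2, 71.7 and 37.4 CPM and MC negative ones 128, 135 and 102 CPM in that order. EC positive libraries had 148, 61.7 and 24.6 CPM and EC negative ones 119.7, 134 and 22.6 CPM. The library with cyclopamine exceeded the fresh one in 6 of 6 blocks, as did the explant library, against 1.74% and 5.7% of all genes tested. The log2 fold changes were 1.82 ± 0.42 for cyclopamine over fresh (adjusted p = 0.159, edgeR), 1.04 ± 0.41 for explant over fresh (adjusted p = 0.4287, edgeR) and 0.78 ± 0.41 for cyclopamine over explant (adjusted p = 0.7046, edgeR). DESeq2 called Fgfr2 and Fgf10 in cyclopamine against fresh.

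Fgf21, a hormone of fasting and cell stress in adult liver, ranged from 0 to 1.94 CPM with cyclopamine, 0.134 to 8.21 CPM in explants and 0 to 0.493 CPM in fresh tissue. It was found in 6 of 6 explant libraries and called by limma-voom in explant against fresh (edgeR adjusted p = 0.2721, log2 fold change 5.45 ± 1.65). Fgf12 was called by DESeq2 in cyclopamine against explant, where edgeR gave -4.51 ± 1.79 (adjusted p = 0.4873). The Fgf12 means differed less than that fit, at 1.14 ± 1.92 CPM with cyclopamine and 3.17 ± 1.72 CPM in explants (SD, n = 6 each). Fgf10 averaged 22.3 ± 22.3 CPM with cyclopamine, 16.4 ± 13.1 in explants and 4.28 ± 6.39 in fresh tissue (SD, n = 6 each). Dusp6 averaged 224 ± 109, 276 ± 223 and 246 ± 167 CPM in that order, a spread wider than the differences.

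Fgfr3 gave the smallest p-value among FGF genes for a culture effect that differed between populations. In EC it had 357 and 62.1 CPM with cyclopamine, 104 and 198 in explants and 15.2 and 8.76 in fresh tissue, in the positive and the negative library of each. In HPSC it had 0.0911 and 2.26 CPM with cyclopamine, 9.08 and 19.5 in explants and 18.4 and 21.3 in fresh tissue. In MC the values were 55.1 and 68.3, 97.7 and 72.9, and 11.6 and 34.6 CPM. Both cyclopamine libraries were thus above both fresh libraries in EC and in MC and below them in HPSC. The share of all genes with such an order is not given here. The interaction had an unadjusted p of 0.001577 and an adjusted p of 1.0 with edgeR, in which 0.00616% of all genes passed and 1.65% had an unadjusted p under 0.05; DESeq2 called Fgfr3 and limma-voom no FGF gene. Of the Fgfr3 exonic bases, 13.9% lie opposite the antisense gene G630022F23Rik.

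Markers of mesenchyme differed between the cultures in EC. The 14 mesenchymal marker genes summed in EC to 7333 and 4479 CPM with cyclopamine, 4748 and 4545 in explants and 1848 and 1151 in fresh tissue, in the positive and the negative library of each. In HPSC they summed to 976.4 and 625.9, 672.8 and 321.8, and 679.3 and 1063 CPM in the same order. In MC they summed to 7948 and 5616, 6776 and 4549, and 8554 and 3036 CPM. Each cultured EC library was thus above both fresh EC libraries, as was the case for Fgfr2 and Fgfr3, whereas in MC and HPSC cultured and fresh libraries overlapped in this sum. The part of these markers in the Fgfr2 and Fgfr3 values was not tested.

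Other genes of the pathway were taken from 3 lists. Of 28 genes for FGF coreceptors, FGF-binding proteins and heparan sulfate, 10 passed as lower in HPSC than in MC and none as higher (adjusted p under 0.05, edgeR). Of all genes tested, 5.85% passed as lower in HPSC. The median log2 fold change was -1.01 over the 28 genes against -0.38 over all genes. Sdc2, a syndecan that carries heparan sulfate at the cell surface, averaged 43.7 ± 24.4 CPM in HPSC, 316 ± 145 in MC and 162 ± 99.0 in EC (SD, n = 6 each), with log2 fold changes of -2.78 ± 0.36 for HPSC over MC (adjusted p = 8.996e-05, edgeR) and -1.75 ± 0.34 for HPSC over EC (adjusted p = 0.03915, edgeR). The glypicans Gpc3 and Gpc1, also heparan sulfate carriers, had log2 fold changes of -2.94 ± 0.44 and -2.99 ± 0.52 for HPSC over MC, and Sulf1, which removes sulfate from heparan sulfate, -3.62 ± 0.55. Sdc2 was the 1 gene of this list to pass between HPSC and EC, and none passed between MC and EC.

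Between receptor and ERK, none of the 24 tested genes that carry the signal, such as the adaptor genes Frs2 and Grb2, passed in any comparison of populations, fractions or cultures. Of all genes tested, 9.95% passed between HPSC and MC, 2.54% between MC and EC and 0.32% or less in each other comparison. The median log2 fold change of the 24 between HPSC and MC was 0.16, against -0.38 over all genes tested. Of 21 tested further ERK targets and feedback genes, Epha4 (-2.52 ± 0.54) and Lrig3 (-3.51 ± 0.95) passed as lower in HPSC than in MC and none as higher. Of all genes tested, 5.85% passed as lower in that comparison. The immediate early genes Fos and Egr1 were higher in explants with cyclopamine than in fresh tissue, with log2 fold changes of 2.16 ± 0.34 and 2.30 ± 0.40 (adjusted p = 0.01406 and 0.02802, edgeR). Of all genes tested, 0.129% passed in that comparison, in which cyclopamine and explant culture cannot be told apart. None of the 21 passed in explant against fresh or in cyclopamine against explant. Dusp6 gave a mean of 224 ± 109 CPM with cyclopamine and 246 ± 167 CPM in fresh tissue.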

How the data were processed

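RNA was prepared with a mirVana kit and the SMARTER protocol, per the labels' protocols. Each deposited table holds whole-number counts per gene symbol for 1 library. TopHat, Cufflinks, HTSeq and mm10 are named in the submitters' processing notes. The sources used here give neither their versions nor the annotation nor whether counting used strand, so reads of a gene and of an overlapping or antisense partner cannot be told apart. Rows without a gene name were left out, among them reads at no feature, 19.5 to 49.4% per library.

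The 37 genes and the lists were chosen with earlier results of these data known. All 18 libraries entered each fit in edgeR 4.0.16 (R 4.3.3), with TMM scaling, the quasi-likelihood F test and Benjamini-Hochberg adjustment over all genes tested. A symbol was tested if 3 or more libraries reached 0.796 CPM, which is 10 counts in a library of median size; 16231 did. Blocks of libraries alike in the other 2 factors (6 for populations, 6 for cultures, 9 pairs for fractions) entered each model, leaving 10, 10 and 8 residual degrees of freedom, and 6 for effects by population. Common biological coefficients of variation lay between 0.884 and 0.922. The alternatives were DESeq2 1.42.0, limma-voom 3.58.1, relative log expression scaling, no filter, an additive design and leaving out each library; leaving out the 3 libraries with fewest detected genes in their population together was added after seeing the data. CPM are relative to the TMM-scaled total, and levels per kilobase use the exon union of GENCODE M21. Described by library or range are the genes that passed any comparison and those with a mean of at least 10 CPM in a population; a few others were named after their values were seen. The tests were tried on simulated data. Intervals and the floor of 3 counts cover counting error only.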

Additional observations from a re-analysis of the deposited data

How the results depend on the processing

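No paired analysis was possible by replicate number because the labels carry none; libraries matched by population, culture or fraction are blocks in the tests themselves, and the additive design is the fit without those blocks. The number of FGF genes that passed between HPSC and MC, 7 as reported, was 9 with DESeq2 and limma-voom, 8 with relative log expression scaling, 6 without a filter, 7 with the additive design, and ran from 2 to 9 as single libraries were left out. With the 3 libraries of lowest gene detection (1 per population) left out together it was 7, Fgf10 passing in place of Fgf9. DESeq2 added Dusp6, Fgf12, Fgfr1 and Fgfrl1 and lost Fgf14 and Fgf15, limma-voom added Dusp6 and Fgfr3, and the additive design added Dusp6 and Fgf12 and lost Fgf9 and Fgf13. Between HPSC and EC, 0 as reported, it was 3 with DESeq2 and ran from 0 to 1 as single libraries were left out, and between MC and EC it was 3 with DESeq2 and 2 with limma-voom. It was 1 with limma-voom in explant against fresh, 1 with DESeq2 in cyclopamine against explant, 2 with DESeq2 in cyclopamine against fresh and 1 with DESeq2 for the culture effect by population. DESeq2 also called more of all genes, 3564 between HPSC and MC against 1615. The cause of these differences was not tested. For genes with an unadjusted p under 0.05 in a comparison, 872 recomputed log2 fold changes kept direction and side of the threshold, 30 newly passed, 58 no longer passed, and none changed sign. Of the other genes, without the 3 libraries of lowest gene detection the HPSC over MC log2 fold changes changed sign for Spred1 (0.19), Spred3 (0.54) and Spry4 (-0.10), none of which passed. Of the 37 genes, 10 with 0 to 75 counts over 18 libraries did not pass the filter and were not tested.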
